A study of Mus musculus with 7 samples.

Results

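Transcripts of 7 genes of cytokine reception were examined in sorted mouse thymocytes: Il2rg, Il15ra, Il21r, Il6ra, Il6st, Il27ra and Jak3. They were chosen by name, as chains of the common gamma and gp130 receptor families together with the kinase of the common gamma chain. The choice was made with earlier results of these data known, so the genes are not an independent draw. Of the 7 genes, 6 had at least 1 probe set with a single gene symbol, and all 6 were among the 10874 genes tested of 18193 in all. Il2rg had no probe set under its name in the annotation used and was not analysed here. Arrays were from stage 1 NKT cells of mice with the Luxoid mutation and the Valpha14 T cell receptor transgene (n = 3), described as PLZF-deficient. They were compared with stage 1 NKT cells of Valpha14 transgenic mice without that mutation (n = 2) and with CD4 single-positive thymocytes (CD4SP) of wild-type mice (n = 2). NKT cells recognise lipids presented by CD1d, and their stage 1 was sorted as CD1d tetramer+ CD24low CD44- NK1.1-. All mice were on a C57BL/6J background, 4 to 6 weeks old, and each sample was a pool of mice. Both NKT groups carried the transgene and the CD4SP mice did not, so cell type and transgene cannot be told apart in the comparisons with CD4SP. The Luxoid mutation was present in the whole animal, so the pools do not separate a defect of the NKT cell from one of its surroundings.

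The common gamma chain (Il2rg) pairs with private chains to form receptors for IL-2, IL-4, IL-7, IL-9, IL-15 and IL-21, and it signals through the Janus kinase JAK3. The gp130 chain (Il6st) is the shared signalling subunit for IL-6 and related cytokines, with Il6ra binding IL-6 and Il27ra pairing with gp130 for IL-27. In thymocytes and T cells these receptors act on survival and on the choice of effector programme, mainly through STAT5 and STAT3.

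The stretch of 250 bases before the annotated start was read from RefSeq (GRCm38.p6) for the 3 receptor genes on which the results turn, to show what the windows share and where they differ. Of the 7 genes, 6 had an entry. Capitals mark matches on either strand. The motifs searched were the GC box with the letters GGGCGG, the CCAAT box, the E box with the letters CANNTG and the ETS core with the letters CCGGAA. The TATA box was searched as TATAAA. The motif of STAT factors was searched as TTCNNNGAA and, with a wider gap, as TTCNNNNGAA. No matches overlapped in these windows, although a pair of E boxes in Il6ra abutted.
Il6st, chr13:112463820-112464069, plus strand: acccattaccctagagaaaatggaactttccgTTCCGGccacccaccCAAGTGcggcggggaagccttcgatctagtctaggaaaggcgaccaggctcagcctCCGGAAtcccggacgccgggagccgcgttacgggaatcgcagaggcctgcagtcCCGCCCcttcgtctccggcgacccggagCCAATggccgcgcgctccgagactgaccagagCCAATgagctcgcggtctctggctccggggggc
Il6ra, chr3:89913197-89913446, minus strand: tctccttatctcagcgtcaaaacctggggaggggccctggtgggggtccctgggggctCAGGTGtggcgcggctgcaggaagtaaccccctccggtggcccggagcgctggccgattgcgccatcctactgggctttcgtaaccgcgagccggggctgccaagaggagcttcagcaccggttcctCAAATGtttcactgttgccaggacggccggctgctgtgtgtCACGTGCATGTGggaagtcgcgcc
Il21r, chr7:125603179-125603428, plus strand: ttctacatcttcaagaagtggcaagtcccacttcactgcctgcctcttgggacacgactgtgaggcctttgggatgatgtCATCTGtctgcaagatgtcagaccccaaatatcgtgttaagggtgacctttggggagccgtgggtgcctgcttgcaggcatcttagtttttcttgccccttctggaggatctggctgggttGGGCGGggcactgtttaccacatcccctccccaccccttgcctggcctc

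The Il6st window held 26 CpG dinucleotides and the Il6ra window 18, while the Il21r window held 4, against a median of 6 over 32851 windows of the same length. Il6st had 2 CCAAT boxes, 2 ETS cores, 1 GC box and 1 E box. Il21r had 1 GC box and 1 E box, and Il6ra had 4 E boxes and no other match. Of all windows, 32.7% held a GC box, 33.8% a CCAAT box, 66.2% an E box and 12% an ETS core. Neither STAT motif was found in these 3 windows (7.02% and 5.85% of all windows held them), nor was a TATA box (12.4%). A match describes letters only.

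Array medians were 79.6 to 83.7 in RMA intensity, and arrays of 1 group correlated at r = 0.984 to 0.992 over all probe sets. Luxoid arrays correlated with stage 1 NKT arrays at 0.981 to 0.992, and NKT arrays with CD4SP arrays at 0.968 to 0.979. Zbtb16, the gene of PLZF, read 1857 to 2774 in the Luxoid arrays, 2751 and 3488 in the stage 1 NKT arrays and 87.3 and 61.8 in the CD4SP arrays, so its transcript does not check the mutant label. Cd24a read 14.9 to 57.1 in Luxoid NKT and 14.1 and 14.2 in stage 1 NKT, against 246 and 239 in CD4SP. A cell type label of the CD4SP samples repeats the NKT sort, while their titles name CD4SP, and the titles were followed. Markers of sex differed within each group, since Y-linked Kdm5d read 6.49 to 11.7 in the arrays numbered 1 and 758 to 2331 in the others. Luxoid array 3 and stage 1 NKT array 2 carried both Y-linked transcripts and Xist, the transcript of the silenced X chromosome; they are called the arrays with both sex signals. Of 6 myeloid markers all 6 stayed under the intensity filter of 82.0 in every array. Of 4 measured NK cell markers 3 did so, and the fourth, Fcer1g, read 843 to 982 in Luxoid NKT, 218 and 253 in stage 1 NKT and 68.9 and 82.5 in CD4SP. Measured B cell markers summed to 302 to 412 in Luxoid NKT, 333 to 369 in stage 1 NKT and 292 to 303 in CD4SP. Of these Cd79b averaged 167, 172 and 53.3 in the same groups, while Cd79a ran the other way at 83.7, 79.6 and 141. Regulatory T markers summed to 2044 to 3010 in Luxoid NKT, 2140 to 2548 in stage 1 NKT and 2809 to 3204 in CD4SP. Among these Foxp3 averaged 171 in Luxoid NKT, 164 in stage 1 NKT and 457 in CD4SP and Ctla4 averaged 57.2, 53.9 and 389, while Ikzf2 ran the other way at 1193, 1097 and 495. Of the gamma delta T markers only Sox13 was measured, at 64.9 to 115 in Luxoid NKT, 199 and 348 in stage 1 NKT and 41.8 and 48.6 in CD4SP. Their part in the results was not tested.

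In Luxoid against unmutated stage 1 NKT, 2 of the 6 genes rose (Il6st and Il21r) and none fell at an adjusted p under 0.05 by limma. Over all genes tested 0.901% were called higher and 0.653% lower. In stage 1 NKT against CD4SP none rose and 3 fell (Il6st, Jak3 and Il6ra), where 10.8% of all genes were called higher and 4.08% lower. In Luxoid NKT against CD4SP none rose and 2 fell (Il6ra and Il6st), where 11.3% were called higher and 5.51% lower. The median difference of the 6 genes was 0.08, -0.69 and -0.47 on the log2 scale in these comparisons, in that order, against -0.03, 0.06 and 0.02 over all genes. The groups did not overlap for 4, 4 and 5 of the 6 genes, and for 26.7%, 60.2% and 46% of all genes tested. The last 2 comparisons share the CD4SP arrays, and each NKT group stands in 2 comparisons.

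**Figure D1:**
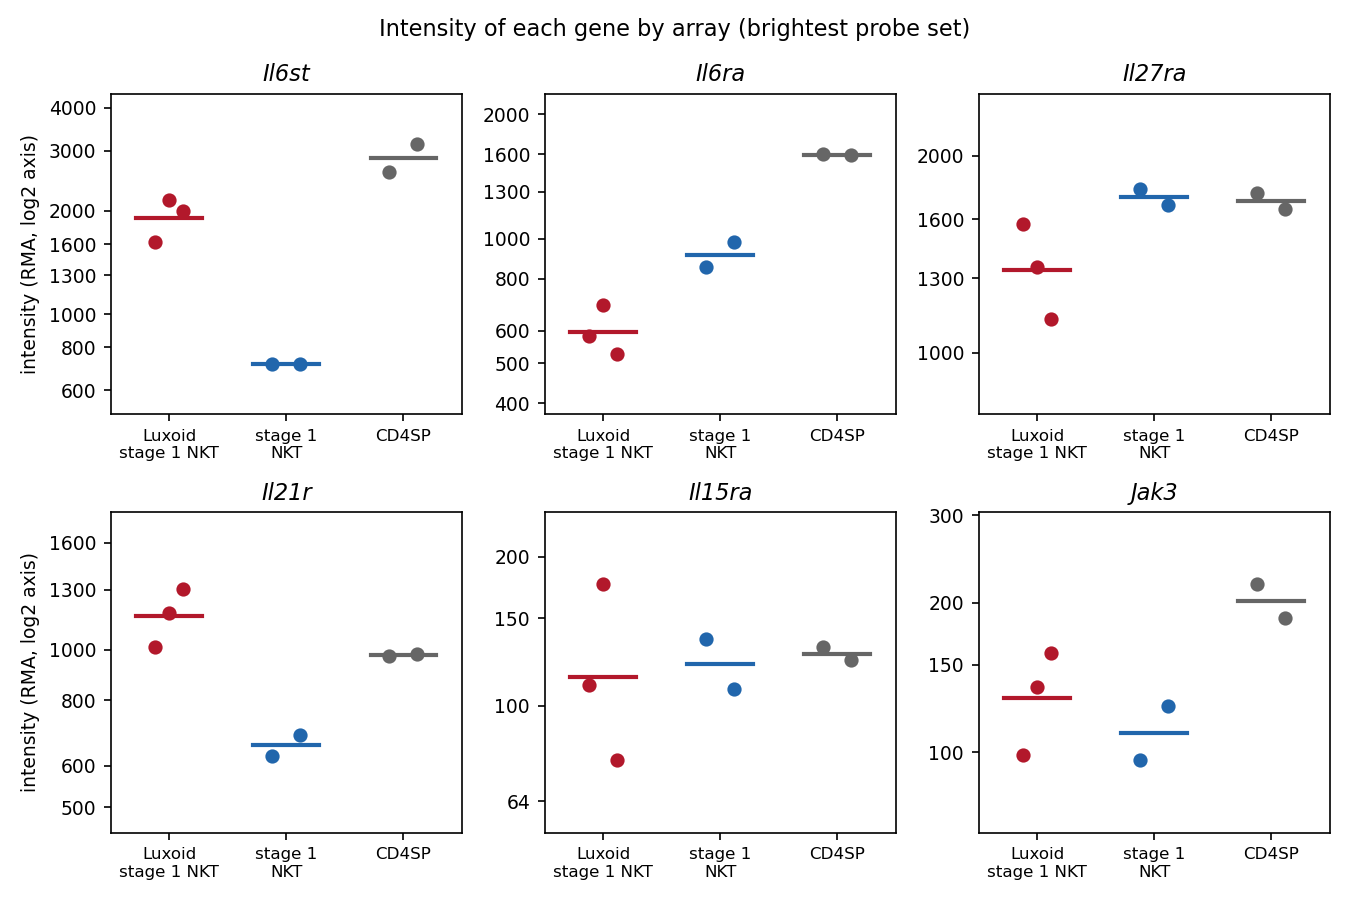
RMA intensity (log2 axis) of the brightest probe set of 6 genes, with 1 point per array and a bar at the geometric mean of Luxoid stage 1 NKT (n = 3), stage 1 NKT (n = 2) and CD4SP (n = 2). Il6st is at 714 in both stage 1 NKT arrays and at 1619 or more in every other array, while Il6ra is lowest in the Luxoid arrays (527 to 690).

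The gp130 chain gene Il6st was the only one of the 6 genes called in all 3 comparisons. On its brightest probe set the levels were 1619, 2149 and 2005 in the Luxoid arrays, 714 and 714 in the stage 1 NKT arrays and 2605 and 3145 in the CD4SP arrays. No groups overlapped, with stage 1 NKT lowest, CD4SP highest and Luxoid NKT between them. Il6st was 2.68-fold higher in Luxoid than in stage 1 NKT (log2 difference 1.42 ± 0.17 SE, adjusted p = 0.00385 by limma), the 48th largest positive difference of 10874 genes. It was 4.01-fold lower in stage 1 NKT than in CD4SP (-2.00 ± 0.18, adjusted p = 0.000223), the 37th largest negative difference. In Luxoid NKT it was 1.5-fold lower than in CD4SP (-0.58 ± 0.17, adjusted p = 0.0440). The arrays measure a pool of cells, so fewer cells with the transcript and less transcript per cell cannot be told apart.

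The fall of Il6st in stage 1 NKT against CD4SP kept its call under all 18 alternatives. The rise in Luxoid had adjusted p = 0.0584 without stage 1 NKT array 1, 0.0668 without stage 1 NKT array 2 and 0.220 without the 2 arrays that carried both sex signals, while the difference stayed between 1.34 and 1.54 under every alternative. The difference of Luxoid NKT from CD4SP had adjusted p = 0.0760 to 0.276 on omission of any one array except Luxoid array 2. It also missed the threshold with no intensity filter (0.0560), with median centring (0.0652), over all probe sets (0.0570) and without both arrays with both sex signals (0.142). The summed level of 7 markers of immature double-positive thymocytes ran in the same order of groups as Il6st, at 418 to 574 in Luxoid NKT, 316 to 325 in stage 1 NKT and 927 to 1075 in CD4SP. Its members did not all follow that order. Cd8a read 144, 184 and 152 in Luxoid NKT, 82.3 and 93.6 in stage 1 NKT and 135 and 148 in CD4SP. It was the only marker of the list called in Luxoid against stage 1 NKT (higher by 0.86, adjusted p = 0.0342), in the direction of Il6st, and it also fell in stage 1 NKT against CD4SP (-0.68, adjusted p = 0.0302). Cd8b1 averaged 76.6 in Luxoid NKT, 64.7 in stage 1 NKT and 245 in CD4SP. Of the 7 markers 4 (Rag1, Rag2, Ptcra and Arpp21) were under the filter in every array, and Rag1 and Arpp21 averaged highest in Luxoid NKT. Dntt read 51.1 to 120 in Luxoid NKT, 46.4 and 73.7 in stage 1 NKT and 461 and 527 in CD4SP. Their part in the Il6st result was not tested.

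All 4 probe sets of Il6st gave the same order of group means. On probe set 3 from the brightest, Luxoid NKT (631, 789 and 739) overlapped with CD4SP (756 and 1173). With every probe set fitted as a feature of its own, where 1.15% of 20360 probe sets were called in Luxoid against stage 1 NKT, the 4 differences were 1.42, 1.44, 1.67 and 1.51, with adjusted p of 0.00615, 0.00867, 0.00666 and 0.0338 by limma. The dimmest read 352, 274 and 276 in Luxoid NKT, 144 and 76.5 in stage 1 NKT and 417 and 436 in CD4SP. In stage 1 NKT against CD4SP the differences ran from -2.12 to -2.00, and all 4 passed, where 11.7% of probe sets were called. In Luxoid NKT against CD4SP they ran from -0.68 to -0.39 and 1 of 4 passed, where 14.1% were called. The 4 probe sets measure transcripts of 1 gene in the same arrays, and are not replicates.

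**Figure D2:**
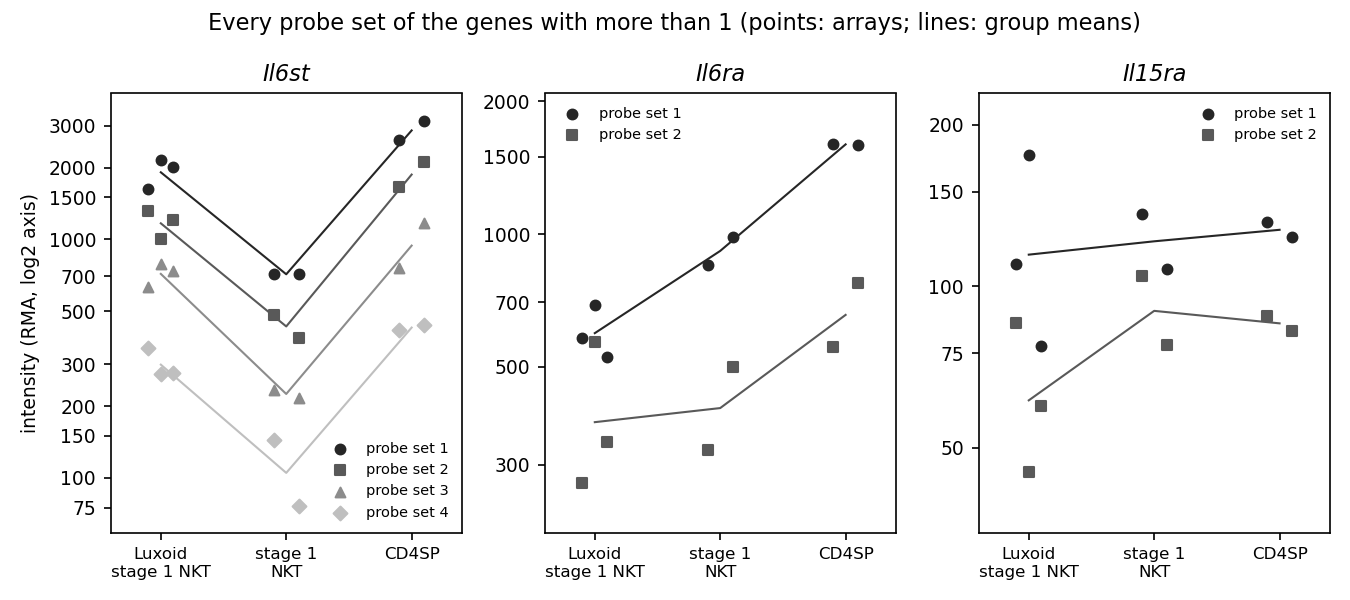
RMA intensity (log2 axis) of every probe set of the 3 genes with more than 1, with a point per array and a line through the geometric means of Luxoid stage 1 NKT (n = 3), stage 1 NKT (n = 2) and CD4SP (n = 2); probe sets are numbered from the brightest. The 4 lines of Il6st have the same V shape with stage 1 NKT lowest, and the lines of Il6ra slope upwards towards CD4SP.

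Il6ra, which encodes the chain that binds IL-6, showed another order. Its brighter probe set read 583, 690 and 527 in the Luxoid arrays, 853 and 984 in the stage 1 NKT arrays and 1604 and 1593 in the CD4SP arrays. No groups overlapped, with Luxoid NKT lowest and CD4SP highest. Il6ra fell 2.68-fold in Luxoid NKT against CD4SP (-1.42 ± 0.16, adjusted p = 0.000514), a call kept under all 18 alternatives. It fell 1.74-fold in stage 1 NKT against CD4SP (-0.80 ± 0.17, adjusted p = 0.0162), a call not kept with the mean of its probe sets (0.0599) or without any 1 array of stage 1 NKT or CD4SP (0.0538 to 0.121) or without both arrays with both sex signals (0.0689). Between Luxoid and stage 1 NKT the difference was -0.62 ± 0.16 (95% interval -0.98 to -0.26, adjusted p = 0.126) and did not pass.

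The dimmer Il6ra probe set was less even. It read 273, 571 and 337 in Luxoid NKT, 325 and 501 in stage 1 NKT and 554 and 777 in CD4SP. Both NKT groups overlapped with each other, and Luxoid array 2 reached into the CD4SP range. Its differences were -0.11 ± 0.33 for Luxoid against stage 1 NKT, -0.70 ± 0.36 for stage 1 NKT against CD4SP and -0.81 ± 0.33 for Luxoid NKT against CD4SP, and none passed (adjusted p = 0.956, 0.258 and 0.147 over all probe sets).

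Il27ra, the chain that pairs with gp130 in the receptor for IL-27, read 1576, 1352 and 1127 in Luxoid NKT, 1780 and 1683 in stage 1 NKT and 1753 and 1658 in CD4SP. The Luxoid arrays lay below all other arrays, and the other 2 groups overlapped. No difference passed: Luxoid minus stage 1 NKT was -0.37 (95% interval -0.74 to 0.00476, adjusted p = 0.439), Luxoid NKT minus CD4SP was -0.35 (-0.72 to 0.03, adjusted p = 0.198) and stage 1 NKT minus CD4SP was 0.02 (-0.39 to 0.43, adjusted p = 0.948). The 3 genes of gp130 receptors thus gave differences of 1.42, -0.62 and -0.37 for Luxoid against stage 1 NKT, with 1 call; whether the genes differ from one another was not tested.

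Among the genes of common gamma receptors, Il21r encodes the private chain for IL-21, a cytokine of follicular helper and NKT cells. It read 1009, 1174 and 1307 in the Luxoid arrays, 626 and 687 in the stage 1 NKT arrays and 971 and 981 in the CD4SP arrays. Stage 1 NKT was lowest and the groups did not overlap, although the lowest Luxoid array lay close to CD4SP. Il21r was 1.76-fold higher in Luxoid than in stage 1 NKT (0.82 ± 0.15, adjusted p = 0.0359). This call was lost without any single array other than Luxoid array 1 (adjusted p = 0.0765 to 0.283), without both arrays that carried both sex signals (0.496) and over all probe sets (0.0554). Stage 1 NKT minus CD4SP was -0.57 ± 0.16 (95% interval -0.95 to -0.20, adjusted p = 0.0503), just short of the threshold, and it passed under 9 of 18 alternatives. Luxoid NKT minus CD4SP was 0.25 (-0.10 to 0.59, adjusted p = 0.320).

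Jak3, the kinase bound to the common gamma chain, was dim. It read 98.9, 135 and 158 in Luxoid NKT, 96.2 and 124 in stage 1 NKT and 218 and 186 in CD4SP. Both NKT groups overlapped and both lay below CD4SP. It fell 1.84-fold in stage 1 NKT against CD4SP (-0.88 ± 0.24, adjusted p = 0.0405), a call lost without any 1 array of those groups (0.0798 to 0.242), without both arrays that carried both sex signals (0.0819), with no intensity filter (0.0556) and over all probe sets (0.0516). Luxoid NKT minus CD4SP was -0.65 ± 0.22 (95% interval -1.15 to -0.15, adjusted p = 0.0792), and Luxoid minus stage 1 NKT was 0.23 (-0.26 to 0.73, adjusted p = 0.770). A further 2 probe sets are annotated to both Jak3 and Insl3 and were left out of the tests. The brighter read 181, 211 and 165 in Luxoid NKT, 147 and 216 in stage 1 NKT and 277 and 269 in CD4SP. The dimmer read 60.6, 80.9 and 102 in Luxoid NKT, 84.5 and 102 in stage 1 NKT and 103 and 111 in CD4SP.

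Il15ra, the private chain that binds and presents IL-15, read 110, 176 and 77.4 in Luxoid NKT, 136 and 108 in stage 1 NKT and 131 and 123 in CD4SP. All groups overlapped, and the Luxoid arrays spanned the others. Its differences were -0.08 for Luxoid against stage 1 NKT (95% interval -0.77 to 0.60), -0.07 for stage 1 NKT against CD4SP (-0.82 to 0.68) and -0.15 for Luxoid NKT against CD4SP (-0.84 to 0.53), with adjusted p of 0.958, 0.906 and 0.781 by limma. The second probe set, at 45.1 to 104 over all arrays, passed in no comparison either (adjusted p = 0.518, 0.893 and 0.279 over all probe sets). These were the widest intervals among the 6 genes in each comparison.

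**Figure D3:**
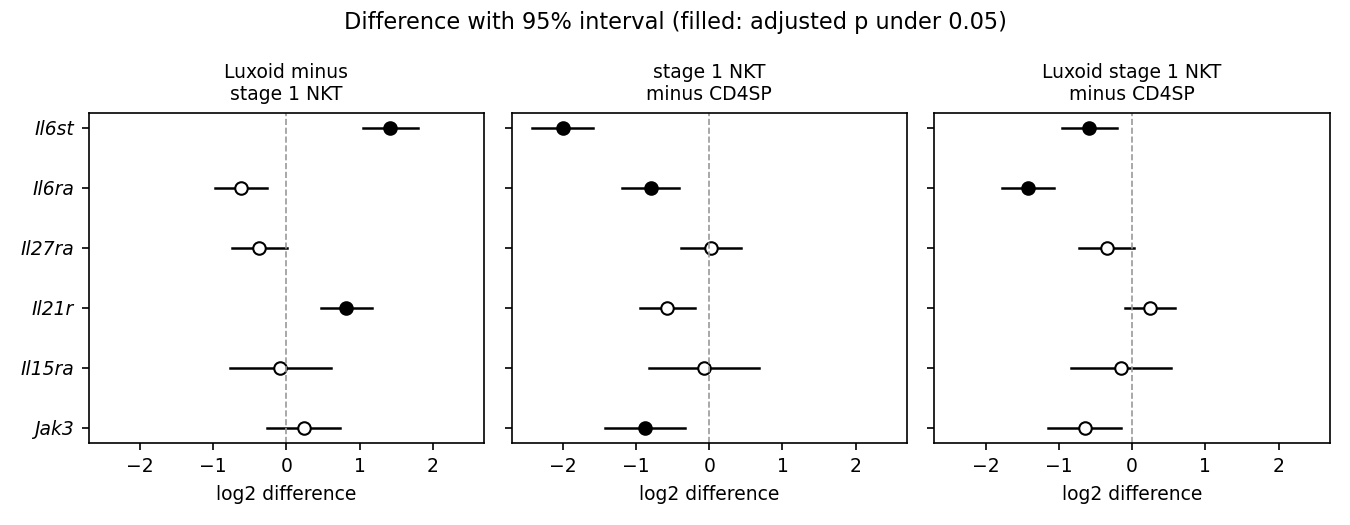
Log2 difference of 6 genes with its 95% interval (lines) in Luxoid minus stage 1 NKT, stage 1 NKT minus CD4SP and Luxoid stage 1 NKT minus CD4SP; filled points have an adjusted p under 0.05. Il6st is at 1.42, -2.00 and -0.58 and Il6ra at -0.62, -0.80 and -1.42, and the intervals of Il15ra span 0 in each panel.

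The genes tested whose log2 levels ran most like each member over the 7 arrays were listed as a description. All arrays were normalized together and the groups differ, so such correlations are high for many genes. For Il6st they were Rflnb (r = 0.987), Rasgrp1, an activator of Ras downstream of the T cell receptor (0.983), and Bcl6, a transcriptional repressor (0.979). For Il21r they were Etnk1, an ethanolamine kinase (0.996), Peli1, a ubiquitin ligase (0.983), and Ppp3cc, a catalytic subunit of calcineurin (0.976). For Il6ra they were the growth factor receptor gene Igf1r (0.996), the nuclear receptor gene Ppard (0.993) and Cd96 (0.993). Il27ra was followed by Rps19, Nfam1 and Dnajc17 (0.983 to 0.977), Jak3 by Mllt10, Pou2f2 and Mfsd4a (0.986 to 0.961) and Il15ra by Terf2, Rab5b and Mfsd12 (0.978 to 0.938). Between members, Il6st and Il21r correlated at r = 0.801 and Il6st and Il6ra at r = 0.270 (n = 7 arrays).

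Other chains that use the common gamma subunit or stand beside it were read next. Of 6 such genes 5 were tested: 2 rose and none fell in Luxoid against stage 1 NKT, and 1 rose and 1 fell in each comparison with CD4SP. Over all genes tested, 0.901% were called higher and 0.653% lower in the first of these comparisons. In stage 1 NKT against CD4SP 10.8% were called higher and 4.08% lower, and in Luxoid NKT against CD4SP 11.3% and 5.51%. The median difference of the 5 genes was 0.25 in Luxoid against stage 1 NKT, 0.29 in stage 1 NKT against CD4SP and 0.34 in Luxoid NKT against CD4SP. Il4ra, the IL-4 binding chain, read 734, 895 and 742 in Luxoid NKT, 173 and 277 in stage 1 NKT and 1075 and 1017 in CD4SP. As with Il6st, stage 1 NKT lay lowest and CD4SP highest. It was 3.60-fold higher in Luxoid than in stage 1 NKT (1.85 ± 0.21, adjusted p = 0.00295) and 4.78-fold lower in stage 1 NKT than in CD4SP (-2.26 ± 0.23, adjusted p = 0.000366). With the mean of its probe sets these folds were 2.32 (adjusted p = 0.0108) and 2.82 (adjusted p = 0.00133).

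Il2rb, the signalling chain shared by IL-2 and IL-15, had another order, at 3285, 3812 and 3240 in Luxoid NKT, 1472 and 2095 in stage 1 NKT and 675 and 593 in CD4SP. Against CD4SP, Luxoid NKT were 5.43-fold higher (adjusted p = 5.44e-05) and stage 1 NKT 2.78-fold higher (adjusted p = 0.00186). Its 1.96-fold rise in Luxoid against stage 1 NKT (adjusted p = 0.0389) had adjusted p of 0.0638 to 0.284 without any 1 of the 7 arrays, 0.168 without both arrays with both sex signals, 0.0515 with a Y-linked covariate and 0.0554 over all probe sets. Without those arrays the rise of Il4ra had adjusted p = 0.0519. Il2ra, the high-affinity chain for IL-2, was lower by at least 2.02-fold in Luxoid NKT, set against CD4SP (adjusted p = 0.00107), as all Luxoid arrays read under 82.0. Foxp3 (-1.42, adjusted p = 0.000397) and Ctla4 (-2.76, adjusted p = 6.88e-05), markers of regulatory T cells as Il2ra is, fell with it in that comparison, while Ikzf2 rose (1.27, adjusted p = 0.0111). Their part in the Il2ra result was not tested. Il7r, the IL-7 binding chain, differed by -0.06 between Luxoid and stage 1 NKT (adjusted p = 0.917).

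Of 7 further chains of the gp130 and IL-12 receptor families 2 passed the filter, and 3 of the 7 (Lifr, Osmr and Cntfr) read under 82.0 in every array. Il11ra1 and Il23r had no probe set with a single gene symbol, so their levels are not known here. Il12rb1, a chain of the IL-12 and IL-23 receptors, read 318, 279 and 243 in Luxoid NKT, 571 and 687 in stage 1 NKT and 166 and 186 in CD4SP. Stage 1 NKT was highest and no groups overlapped. It fell 2.25-fold in Luxoid against stage 1 NKT (adjusted p = 0.0106). On omission of stage 1 NKT array 1 that p was 0.0597, on omission of array 2 it was 0.170, and without both arrays with both sex signals it was 0.376. It was higher than in CD4SP by 1.59-fold in Luxoid NKT (adjusted p = 0.0267, lost without Luxoid array 1 or either CD4SP array at 0.0659 to 0.160) and by 3.57-fold in stage 1 NKT (adjusted p = 0.000321).

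Of 16 ligand genes 14 had a probe set with a single gene symbol and 4 were tested. Of these 4, 3 rose in each comparison with CD4SP (median difference 1.53 in stage 1 NKT and 1.57 in Luxoid NKT). Over all genes tested 10.8% and 11.3% were called higher, in that order. Il4 and Il21 passed the filter through their NKT arrays alone, so for them the filter itself favoured a rise against CD4SP. Il21, the ligand of Il21r, read 405, 264 and 307 in Luxoid NKT, 338 and 163 in stage 1 NKT and 49.5 and 46.5 in CD4SP. Both CD4SP arrays were under the filter, so Il21 was at least 3.91-fold higher in Luxoid NKT (adjusted p = 0.000485) and at least 2.86-fold higher in stage 1 NKT (adjusted p = 0.00253). Il4 was at least 2.82-fold higher in Luxoid NKT (adjusted p = 6.03e-05) and at least 6.41-fold higher in stage 1 NKT (adjusted p = 1.62e-05) than in CD4SP. Between the NKT groups 0.653% of all genes tested were called lower in Luxoid. Of the 4 ligands only Il4 passed there, with a fall of 2.28-fold in Luxoid (adjusted p = 0.0100). That p was 0.131 on omission of stage 1 NKT array 1, 0.0777 on omission of array 2 and 0.206 without both arrays with both sex signals. Clcf1, a cytokine that signals through gp130, rose 1.92-fold in Luxoid NKT (adjusted p = 0.00357) and 1.70-fold in stage 1 NKT (adjusted p = 0.0166) against CD4SP. The stage 1 NKT call was lost without either stage 1 NKT array or CD4SP array 1. It was also lost without both arrays with both sex signals (difference 0.88). Il6 itself read 4.57 to 5.88 over all arrays, under the filter.

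Of 10 genes of other Janus kinases and STAT factors 9 were tested and none passed in Luxoid against stage 1 NKT, with a median difference of 0.08. Over all genes tested 0.901% were called higher and 0.653% lower there, and none among 9 is close to that share. The differences of Jak2, Stat3, Stat5a and Stat5b lay between 0.07 and 0.14 there (adjusted p = 0.776 to 0.940). Stat4, a factor downstream of IL-12, was 2.13-fold lower in Luxoid NKT (adjusted p = 0.0146, and 0.105 and 0.0812 without CD4SP array 1 and array 2) and 3.07-fold lower in stage 1 NKT (adjusted p = 0.00426) than in CD4SP. It was the only one of the 9 genes called in either comparison with CD4SP. Over all genes tested, 10.8% were called higher and 4.08% lower in stage 1 NKT, and 11.3% and 5.51% in Luxoid NKT. The list's median difference from CD4SP was -0.25 in stage 1 NKT and -0.14 in Luxoid NKT. In Luxoid against stage 1 NKT Stat4 had the largest difference of the list (0.53, 95% interval -0.01 to 1.07, adjusted p = 0.439).

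Of 17 inhibitors of the pathway 15 were tested and none passed in Luxoid against stage 1 NKT, with a median difference of 0.08. None among 15 is close to the share over all genes tested there (0.901% higher and 0.653% lower). Socs3, a feedback inhibitor that binds gp130, read 133, 59.2 and 101 in Luxoid NKT, 72.1 and 84.3 in stage 1 NKT and 202 and 290 in CD4SP. Both NKT groups lay below CD4SP. It fell 2.61-fold in Luxoid NKT (adjusted p = 0.0188) and 3.10-fold in stage 1 NKT (adjusted p = 0.0155). The Luxoid call was lost without either CD4SP array, and the stage 1 NKT call without either stage 1 NKT array or CD4SP array 2. Both calls were also lost without both arrays with both sex signals (differences -1.45 in Luxoid NKT and -1.75 in stage 1 NKT). Cish, a STAT5 target that inhibits the pathway, fell 1.98-fold in stage 1 NKT against CD4SP (adjusted p = 0.0262). That call was lost without either stage 1 NKT array or CD4SP array 2. It was also lost without both arrays with both sex signals (difference -0.97). In Luxoid against stage 1 NKT Cish was higher by 0.74 (95% interval 0.24 to 1.24, adjusted p = 0.196), which did not pass. In all, 3 of 15 rose and 1 fell in Luxoid NKT against CD4SP, and 1 rose and 2 fell in stage 1 NKT against CD4SP. Over all genes tested, 11.3% were called higher and 5.51% lower in Luxoid NKT, and 10.8% and 4.08% in stage 1 NKT. The inhibitor gene that rose in both comparisons was Pias3, an inhibitor of STAT3. On its brightest probe set it was at least 2.24-fold higher in Luxoid NKT (adjusted p = 0.000511) and at least 1.92-fold higher in stage 1 NKT (adjusted p = 0.00204). The stage 1 NKT call was lost without both arrays with both sex signals (difference 1.60). With the mean of its probe sets the fitted differences of Pias3 were 1.06 (2.09-fold) in Luxoid NKT and 0.98 (1.97-fold) in stage 1 NKT. They stood in place of 1.85 and 1.63, and the fold in Luxoid NKT was under the bound from the brightest probe set. Socs5 (1.98-fold, adjusted p = 0.0468) and Ptpn1, a tyrosine phosphatase (1.46-fold, adjusted p = 0.0228), rose in Luxoid NKT against CD4SP. The call of Ptpn1 was lost without Luxoid array 3 (0.0606), without either CD4SP array (0.109 and 0.112), without both arrays with both sex signals (0.115) and on averaging its probe sets (0.0582). That of Socs5 was lost under 10 of 18 alternatives (0.0556 to 0.202), and the mean of its probe sets differed by 0.44 in place of 0.98.

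Of 18 genes known as targets of STAT5 or STAT3 in T cells 16 were tested. In Luxoid against stage 1 NKT 2 rose and none fell, with a median difference of 0.17, where 0.901% of all genes were called higher and 0.653% lower. Bcl6 read 439, 441 and 391 in Luxoid NKT, 167 and 142 in stage 1 NKT and 639 and 646 in CD4SP, and it rose 2.75-fold (1.46 ± 0.14, adjusted p = 0.00143, and 0.0866 without both arrays with both sex signals). Gzmb, a cytotoxic granule protease, rose 2.43-fold (adjusted p = 0.0358, 0.0564 to 0.352 without any 1 of the 7 arrays and 0.371 without both arrays with both sex signals). Against CD4SP 3 rose and 6 fell in Luxoid NKT, and 2 rose and 6 fell in stage 1 NKT, with median differences of -0.38 and -0.31 in that order. Over all genes tested, 11.3% were called higher and 5.51% lower in Luxoid NKT, and 10.8% and 4.08% in stage 1 NKT.

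Maf, a transcription factor of cytokine genes, had the largest difference of this list in both comparisons with CD4SP. It rose 6.66-fold in Luxoid NKT (adjusted p = 0.000551) and 12.7-fold in stage 1 NKT (adjusted p = 0.000231). Averaged over all its probe sets, Maf rose 2.91-fold in Luxoid NKT (adjusted p = 0.00256) and 6.56-fold in stage 1 NKT (adjusted p = 0.000249). Gzmb rose at least 2.72-fold in Luxoid NKT (adjusted p = 0.000788), and Irf4 rose 2.02-fold there (adjusted p = 0.00410). Bcl3 fell 2.95-fold in Luxoid NKT (adjusted p = 0.00790, and 0.0897 without CD4SP array 2). In stage 1 NKT it fell 3.44-fold (adjusted p = 0.00777, lost without either stage 1 NKT array or CD4SP array 2 at 0.0556 to 0.0718). In stage 1 NKT Bcl6 fell 4.17-fold (adjusted p = 8.07e-05). Lta, a cytokine of the tumour necrosis factor family, fell 1.89-fold there (adjusted p = 0.0330). That call was lost without any 1 array of these 2 groups. It was also lost without both arrays with both sex signals (difference -1.14).

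**Figure D4:**
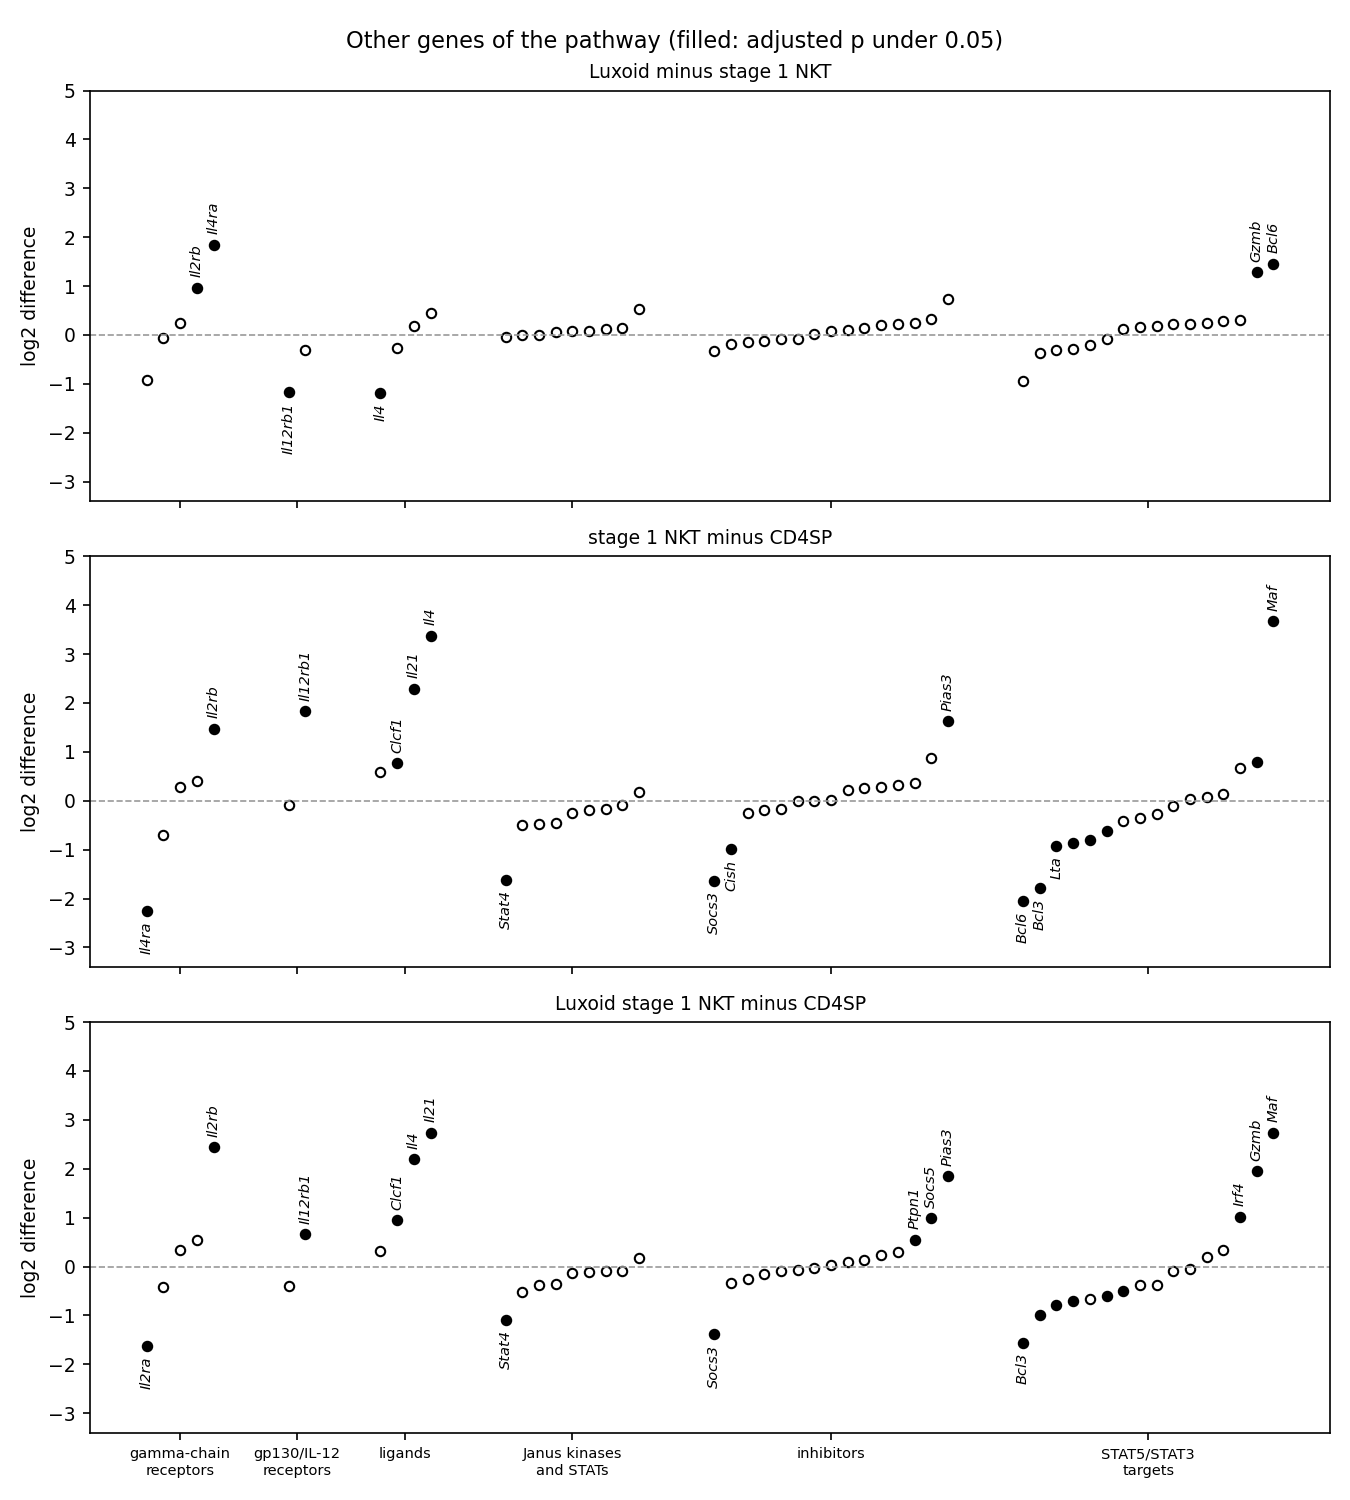
Log2 difference of every tested gene of 6 lists of the pathway, ordered by size within each list, in Luxoid minus stage 1 NKT, stage 1 NKT minus CD4SP and Luxoid stage 1 NKT minus CD4SP; filled points have an adjusted p under 0.05 and up to 4 of these are named per list. Differences are as fitted, also where the text gives a bound. The top panel has no filled point among the Janus kinases and STAT factors or the inhibitors, and Maf stands highest among the targets in both other panels.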

How the data were processed

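Gene expression was measured in 7 samples on single-colour Affymetrix arrays. The deposited values were intensities on a linear scale, made by the authors with RMA and Affymetrix Expression Console, per the submitters' processing notes, which give no versions. RMA equalises the distribution of values between arrays and compresses differences of dim probe sets. Log2 was taken first.

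The GEO platform annotation named the probe sets (34945 of 45037 with 1 symbol, 932 with several, 9160 unlisted). Each gene was represented by its brightest probe set, and tested if at least 2 arrays reached 82.0 (the median of all values). One mean per group was fitted with limma 3.58.1 in R 4.3.3, with Benjamini-Hochberg adjustment over 10874 genes, two-sided. A fold against a group lying wholly under 82.0 is a lower bound for that probe set, taken against 82.0. Fits were also run on simulated data with independent noise, which held none of the sex differences seen among these arrays. That run therefore does not bear on such differences. Differences are log2 ± SE, and pooled levels are geometric means.

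Named were all members, up to 4 called genes per pathway list and comparison with the largest difference, and the 3 genes most correlated with each member. Il7r, Il6, Jak2, Stat3, Stat5a and Stat5b were named after their values were seen. Alternatives changed the filter, normalization, probe set summary, variance prior, array weights, replicate block, a Y-linked covariate and the arrays included. Members and lists were chosen with earlier results of these data known. The labels call the samples biological replicates, and the precision is limited by 2 or 3 arrays a group.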

Additional observations from a re-analysis of the deposited data

How the results depend on the processing

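Of the 18 comparisons of the 6 genes (6 genes in 3 contrasts), none reversed a call under any alternative. The fall of Il6st in stage 1 NKT and of Il6ra in Luxoid NKT, both against CD4SP, stayed past the threshold in all. For Luxoid against stage 1 NKT the count of 2 members called became 1 with the replicate block and with probe sets as features, 0 without both arrays that carry both sex signals, and 0 to 2 when single arrays were left out. For stage 1 NKT against CD4SP the count of 3 became 2 with no filter and with probe sets as features. With the mean of the probe sets it stayed at 3, with Il21r called (adjusted p = 0.0309 by limma) in place of Il6ra (0.0599). It became 4 with the stricter filter, quantile normalization, a trended variance prior, array weights, the replicate block and the Y-linked covariate. Leaving out Luxoid array 1 or 3 also gave 4. The count fell without any 1 array of stage 1 NKT or CD4SP, and without both arrays that carry both sex signals. For Luxoid NKT against CD4SP the count of 2 became 1 with no filter, with median centring, with probe sets as features and without both arrays that carry both sex signals, and 1 to 2 when single arrays were left out. The counts of all genes called (169, 1621 and 1831) ranged over 55 to 178, 643 to 1846 and 866 to 1726 when single arrays were left out, and were 10, 520 and 918 without both arrays that carry both sex signals. Over single genes, these and the other alternatives left 276 of the members' results on their side of the threshold, took 35 below it and 10 past it; for the other named genes the counts were 927, 84 and 6. Some of these fits leave 1 array in a group, which is then assumed to vary like the others. The replicate block moved the second count to 2616, and it gave 3 members called in place of 2 in Luxoid NKT against CD4SP. The labels do not say that equal numbers mark a shared source, yet same-numbered arrays deviated together from their group means (r = 0.334 to 0.491). In a group of 2 arrays the deviations mirror each other, so these values are not separate observations. The arrays numbered 1 had little Y-linked signal and the others had it, so sex and a shared source cannot be told apart. With the block Il21r had adjusted p = 0.0520 for Luxoid against stage 1 NKT and 0.0203 for stage 1 NKT against CD4SP, Jak3 had 0.0302 for Luxoid NKT against CD4SP, and the rise of Il2rb in Luxoid against stage 1 NKT had 0.0606 and Socs5 had 0.0431 for stage 1 NKT against CD4SP; it changed no other call of a named gene. The alternatives with probe sets as features and without both arrays that carry both sex signals were chosen after seeing the data. Dim genes (Jak3, Il15ra) lie near the filter, where RMA compresses differences.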
